A study of Homo sapiens with 3 samples.

Results

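Cadherins and protocadherins are calcium-dependent adhesion proteins of the cell surface, and they were followed here across 3 RNA sequencing libraries. All carry the label HCT116, an established line from a human carcinoma of the colon that is generally known as epithelial and as a carrier of E-cadherin. The members were chosen by name: protein-coding genes whose symbol is CDH followed by digits, or begins with PCDH. This gave 89 of the 58735 genes in the deposited table, and 19951 of those are protein-coding. They were split into 18 classical cadherins, 5 atypical cadherins, 13 non-clustered protocadherins, and the 15 alpha, 16 beta and 22 gamma protocadherins that lie in tandem on chromosome 5. The groups were cells carrying the empty vector, cells overexpressing wild-type ZEB1, and cells overexpressing ZEB1 K80R, whose name says that arginine stands in place of a lysine. They are called the vector, wild-type and K80R libraries below. Each group was 1 library, the treatment label was control for all 3, all were grown in DMEM with fetal bovine serum, and the labels do not say whether a line was a clone or a pool. ZEB1 is a zinc-finger transcription factor best known for repressing CDH1. The series is about the K80R form in epithelial-mesenchymal transition, of which a change of cadherins is a classical sign.

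Classical cadherins hold neighbouring cells together by binding the same cadherin on the next cell, and their cytoplasmic tails bind beta-catenin and p120-catenin, which link them to actin. Epithelia typically carry E-cadherin (CDH1) and P-cadherin (CDH3), while mesenchymal and neural cells carry N-cadherin (CDH2) or cadherin-11. Protocadherins have a similar extracellular part but other tails. In the alpha and gamma clusters each gene has its own first exon and promoter and is spliced to constant exons that the whole cluster shares, and neurons use different sets of these promoters to gain distinct surface identities.

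The values were FPKM, fragments scaled to the length of the gene and to a library size. Whole reads could be recovered from them, and they came to 14764535 in the vector library, 14322537 in wild type and 13479517 in K80R. The library sizes that the deposited FPKM imply were 15886593, 13795840 and 13321338, which are not these totals. Values are given below in this order. A group of 1 library has no spread between cultures, so there is no test and no p-value, and what is said holds for these libraries. Ratios are ratios of FPKM, and brackets hold their exact 95% counting interval, which covers counting error only. ZEB1 itself stood at 5.66, 9.83 and 10.3 FPKM. As deposited, wild type was at 1.74 (1.58 to 1.90) times vector and K80R at 1.82 (1.66 to 1.996). The shifts of scale given below apply to these ratios too. The vector library had reads on 18928 genes, against 23457 and 24325, held 350 genes with exactly 1 read, against 2705 and 2902, and had 1.29% of its reads on mitochondrial genes, against 7.77% and 9.75%. When each library was rescaled to a common sum of FPKM, every log2 ratio to vector shifted by −0.46 for wild-type ZEB1 and −0.44 for K80R, and by 0.02 for K80R against wild type. Per total of recovered reads, ratios to vector shifted by −0.16 for wild type and −0.12 for K80R, and by 0.04 for K80R against wild type. A scale set by the median ratio between libraries stayed close to the deposited values. It shifted ratios to vector by 0.014 for wild type and 0.002 for K80R, and K80R against wild type by −0.013. How ratios to vector are read thus depends on the scale. The comparisons below give the counts on 3 scales: as deposited, at a common sum and per total of reads.

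Most genes that mark the labelled cell type were not detected. Of 17 colon epithelial markers, 9 had 0 reads in all libraries, among them EPCAM, CDX1, CDX2, VIL1 and CEACAM5, and 2, KRT8 and KRT18, had a mean FPKM of at least 1. For this list the summed level was 93.9, 102 and 90.9 FPKM. Of 12 fibroblast and mesenchyme markers, 5 reached that mean, with VIM and FN1 at the top, PDGFRA, THY1 and LUM had 0 reads, and the summed level was 347, 668 and 561 FPKM. The mean of 1 was reached by 1 of 7 endothelial markers, TIE1, by none of 7 leukocyte markers, and by 2 of 8 neuronal markers, NEFL and SNAP25. The summed levels were 9.89, 13.9 and 12.1 for endothelium, 0.271, 0.259 and 0.305 for leukocytes, and 74.5, 47.5 and 52.7 for neurons. The missing epithelial genes go against the label HCT116, which is in doubt for these libraries, and every value below holds for the libraries so labelled.

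A few members carried most of the family's reads. All 89 members together had 8625, 10638 and 11262 reads, and PCDHGC3, CDH2, CDH11 and CDH13 held 66.1% (65.1 to 67.1), 71.7% (70.8 to 72.5) and 69.5% (68.7 to 70.4) of them, with exact Clopper-Pearson intervals. A mean FPKM of at least 1 over the 3 libraries was reached by 10 members: CDH2, CDH11, CDH24, CDH13, PCDH1, PCDHGA12, PCDHGB4, PCDHGB7, PCDHGC3 and PCDHGC5. Nearest to this limit were PCDHGA6, at a mean of 0.993, and PCDHGB2, at 0.898, both below it, and PCDHGB7, at 1.73, above it. Another 30 had at least 20 reads in some library, 23 had at most 4 to 19, 14 at most 1 to 3, and 12 had 0 reads throughout.

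**Figure D1:**
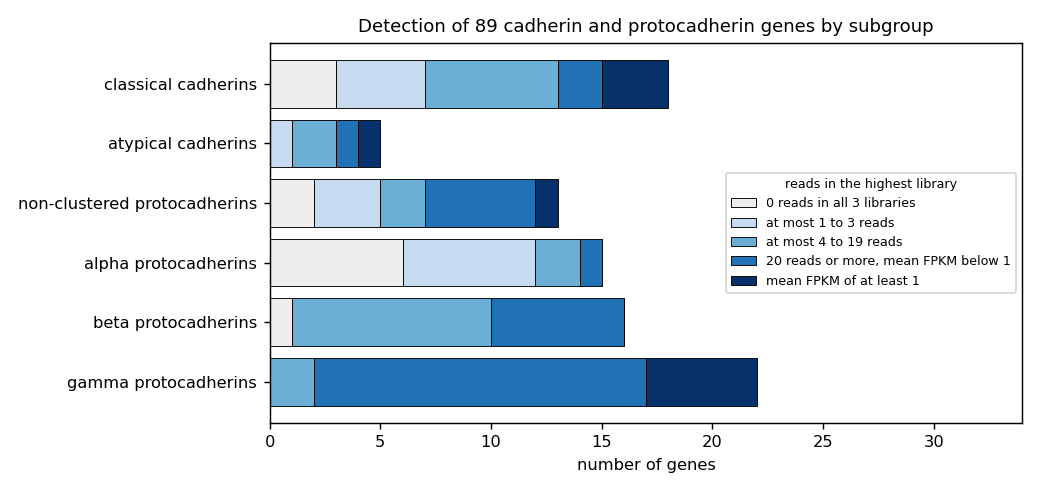
Number of genes (x axis) in each subgroup of cadherins and protocadherins, split by the reads of each gene in its highest library. All 22 gamma protocadherins had reads and 20 of them had at least 20 reads in some library, while 12 of the 15 alpha protocadherins had at most 3 reads.

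The 12 members without a read in any library were CDH1, CDH3 and CDH6 of the classical cadherins, the non-clustered PCDH8 and PCDH10, PCDHA5, PCDHA6, PCDHA8, PCDHA11, PCDHA13 and PCDHAC1 of the alpha cluster, and PCDHB1. E-cadherin (CDH1, ENSG00000039068, GRCh38 chromosome 16, 68737225 to 68835548, plus strand) and P-cadherin (CDH3, chromosome 16, 68636189 to 68722616, plus strand) are neighbours. A count of 0 allows up to 3 reads, an FPKM of up to 0.0306 for CDH1 and 0.0303 for CDH3 in the vector library. The best known target of ZEB1 was thus not detected in the vector library either, and no lower level could be measured in the ZEB1 libraries. With the cell line label in doubt, these zeros say nothing of HCT116 cells in general. CDH17, the liver-intestine cadherin of the gut epithelium, had 0, 7 and 2 reads, and CDH5, the cadherin of endothelial junctions, 0, 4 and 0.

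N-cadherin (CDH2, ENSG00000170558, chromosome 18, 27950966 to 28177446, minus strand) was the most abundant classical cadherin, at 18.5, 27.5 and 33.3 FPKM. Both ZEB1 libraries lay above the vector library, and the K80R library was the highest. Wild type stood at 1.49 (1.39 to 1.59) times vector and K80R at 1.80 (1.69 to 1.93), and K80R at 1.21 (1.14 to 1.29) times wild type. At a common sum the ratios to vector were 1.08 and 1.33, the same direction by less. In bulk RNA, more cells with a transcript and more of it per cell cannot be told apart.

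Cadherin-11 (CDH11, ENSG00000140937, chromosome 16, 64943753 to 65126112, minus strand), a type II cadherin of mesenchymal cells, followed the same order at a lower level, with 4.49, 6.81 and 7.34 FPKM. It stood at 1.52 (1.39 to 1.65) and 1.63 (1.503 to 1.78) times vector, and at 1.10 and 1.21 times at a common sum. Between the ZEB1 libraries the interval as deposited reached from 0.997 to 1.17, so on that scale counting error alone could give the difference. At a common sum and per total of reads the interval lay above 1, so this reading depends on the scale. The summed mesenchyme list above was also higher in the ZEB1 libraries, though COL1A1 within it stood at 1.70, 0.930 and 0.680 FPKM, and its part in these differences was not tested.

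CDH24, a type II cadherin that binds catenins (ENSG00000139880, chromosome 14, 23047062 to 23057538, minus strand), stood at 12.6, 14.1 and 16.1 FPKM. These lie close together, with ratios of 1.12 (1.01 to 1.24) and 1.27 (1.15 to 1.40) to vector that turned to 0.813 and 0.936 at a common sum. R-cadherin (CDH4) was low, at 0.283, 0.621 and 0.582 FPKM from 33, 63 and 57 reads, and both ZEB1 libraries were above vector, at 2.20 (1.42 to 3.46) and 2.06 (1.32 to 3.27) times its level. At a common sum these were 1.60 (1.03 to 2.52) and 1.52 (0.972 to 2.41), so the interval for K80R held 1. CDH8 gave 0.256, 0.273 and 0.266 FPKM, values that differ by less than their counting error and turn below vector at a common sum.

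Several type II cadherins of the nervous system lie on the short arm of chromosome 5. Of these, CDH10 and CDH12 had a few reads in both ZEB1 libraries and almost none in the vector library. CDH18 had reads in the K80R library alone. CDH10 had 2, 16 and 19 reads, ratios of 9.21 (2.17 to 82.6) and 11.3 (2.73 to 100.3) to vector, and CDH12 had 1, 11 and 5. CDH18 (ENSG00000145526, chromosome 5, 19472951 to 20575873, minus strand) had 0, 0 and 17 reads, so K80R was at least 6.76-fold higher than vector and at least 5.87-fold higher than wild type, taking 3 reads for each library at 0. Among 13804 genes with at least 17 reads in the K80R library, 2 had 0 reads in both others, CDH18 included, a limit set after its reads were seen. Their neighbour CDH9 had 0, 1 and 0 reads. The vector library also held the fewest genes with exactly 1 read (350, as given above), whose part in these low counts was not tested. The other classical members, CDH7, CDH15, CDH19, CDH20 and CDH22, stayed at or below 13 reads.

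Among the atypical cadherins, T-cadherin (CDH13, ENSG00000140945, chromosome 16, 82626803 to 83800640, plus strand) had the largest ratio of wild type to vector among the 10 members that reached a mean FPKM of 1. It lacks a cytoplasmic tail, is held by a lipid anchor and binds adiponectin and low-density lipoprotein. Its levels were 4.95, 14.7 and 12.5 FPKM, from 880, 2262 and 1856 reads. Both ZEB1 libraries were above the vector library, at 2.96 (2.74 to 3.20) and 2.52 (2.32 to 2.73) times its level, or 2.15 and 1.85 at a common sum. Unlike CDH2, CDH13 was lower in the K80R library than in the wild-type library, with a ratio of 0.8497 (0.799 to 0.904).

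The other atypical cadherins were near the limit of detection. CDH23, the cadherin of the tip links of hair cells, had 35, 10 and 25 reads and was lower in the wild-type library, at 0.329 (0.145 to 0.679) of vector, though another gene covers 3505 of its exon bases on the opposite strand and the strand setting is not given. The kidney cadherin CDH16 had 9, 0 and 0 reads, and CDH26 at most 2.

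Of the 13 non-clustered protocadherins, PCDH1 (ENSG00000156453, chromosome 5, 141853111 to 141879246, minus strand) was the one with a mean FPKM of at least 1. It is a protocadherin of airway and other epithelia and an entry receptor of New World hantaviruses. It stood at 1.99, 5.42 and 5.32 FPKM. Both ZEB1 libraries were above vector, at 2.72 (2.28 to 3.24) and 2.67 (2.24 to 3.18) times its level, or 1.98 and 1.97 at a common sum. Between the ZEB1 libraries the ratio was 0.982 (0.857 to 1.12), which holds 1. PCDH12, known from endothelium and trophoblast, lies near it on the same strand and was lower, at 0.388, 0.638 and 0.914 FPKM, with ratios of 1.65 (1.09 to 2.50) and 2.36 (1.61 to 3.50).

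The remaining non-clustered genes did not share this order. PCDH7 had 49, 24 and 49 reads and PCDH9 had 42, 24 and 57, so both were lowest in the wild-type library, and K80R stood at 2.11 (1.27 to 3.60) and 2.46 (1.502 to 4.14) times wild type. PCDH17 had 34, 18 and 13 reads, and its ratio of K80R to vector was 0.456 (0.221 to 0.886). PCDH18 was level, at 0.301, 0.271 and 0.303 FPKM. PCDH15, the partner of CDH23 in tip links, PCDH19 and PCDH20 had at most 6 reads. On its strand, 4577 of the 4778 exon bases of PCDH20 are not unique to it, so its count says little of its level. PCDH11X and PCDH11Y, nearly identical copies whose reads are hard to tell apart, had at most 4.

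**Figure D2:**
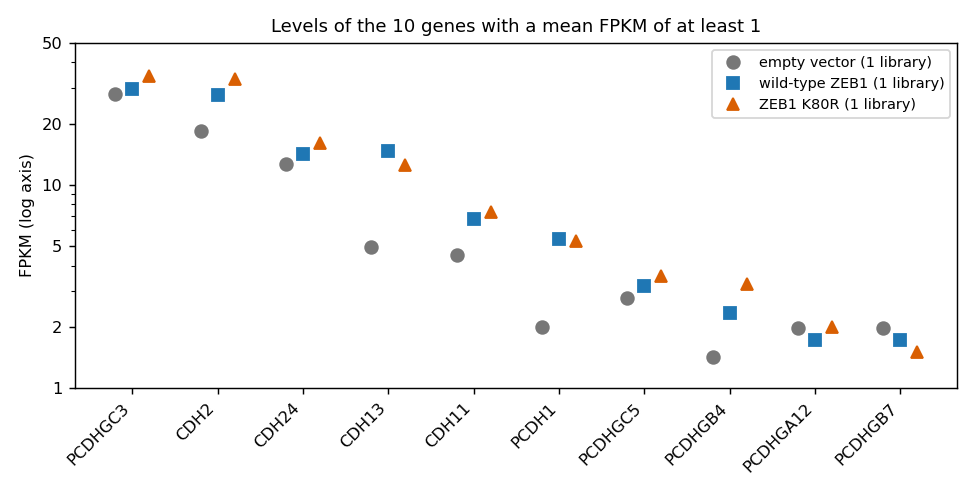
FPKM on a log axis of the 10 cadherin and protocadherin genes whose mean FPKM reached 1, ordered by that mean, with 1 point for each of the 3 libraries and no error bars. CDH2, CDH11, CDH13, PCDH1 and PCDHGB4 were higher in both ZEB1 libraries than in the vector library, also at a common sum, where the wild-type interval of PCDHGB4 held 1. CDH24, PCDHGC3 and PCDHGC5 were higher as deposited and lower at a common sum.

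ZEB1 is known to bind E-boxes of the form CACCTG, which reads CAGGTG on the other strand, so the promoters of members on which these results turn are shown. They are the 250 bases before a start site in RefSeq (GRCh38.p14), the site nearest to the start of the deposited gene, read 5′ to 3′ on the gene's strand, with any such E-box in capitals.
CDH2: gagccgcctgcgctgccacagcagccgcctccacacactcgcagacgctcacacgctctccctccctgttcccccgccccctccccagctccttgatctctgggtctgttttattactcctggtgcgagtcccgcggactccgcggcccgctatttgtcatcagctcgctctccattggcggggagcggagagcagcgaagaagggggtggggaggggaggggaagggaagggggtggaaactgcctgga
PCDH1: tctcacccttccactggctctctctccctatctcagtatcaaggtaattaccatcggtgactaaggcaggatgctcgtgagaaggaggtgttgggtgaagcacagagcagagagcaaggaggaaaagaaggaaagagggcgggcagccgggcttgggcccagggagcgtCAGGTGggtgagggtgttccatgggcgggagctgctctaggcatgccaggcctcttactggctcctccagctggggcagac
PCDHGC3: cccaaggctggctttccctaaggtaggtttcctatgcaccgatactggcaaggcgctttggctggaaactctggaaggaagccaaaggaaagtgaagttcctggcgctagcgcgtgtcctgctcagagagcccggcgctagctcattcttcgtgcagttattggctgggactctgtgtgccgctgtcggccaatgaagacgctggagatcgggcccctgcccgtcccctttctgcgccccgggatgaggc
PCDHGB4: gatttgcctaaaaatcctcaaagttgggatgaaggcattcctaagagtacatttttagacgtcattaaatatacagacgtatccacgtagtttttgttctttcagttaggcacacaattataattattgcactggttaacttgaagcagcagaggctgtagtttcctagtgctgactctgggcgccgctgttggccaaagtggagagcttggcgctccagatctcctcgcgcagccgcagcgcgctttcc
PCDHGB6: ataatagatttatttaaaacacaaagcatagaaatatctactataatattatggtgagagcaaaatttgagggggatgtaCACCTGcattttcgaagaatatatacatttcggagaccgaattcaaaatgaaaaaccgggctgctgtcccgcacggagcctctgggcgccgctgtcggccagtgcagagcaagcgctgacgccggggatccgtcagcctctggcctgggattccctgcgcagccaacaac

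These lie at chr18:28177131-28177380 for CDH2, chr5:141869628-141869877 for PCDH1, chr5:141475716-141475965 for PCDHGC3, chr5:141387448-141387697 for PCDHGB4 and chr5:141407771-141408020 for PCDHGB6, with CDH2 and PCDH1 on the minus strand. The PCDH1 site is 9619 bases inside the deposited gene, and that of CDH2 316 bases. PCDH1, which was higher in the ZEB1 libraries, has 1 CAGGTG, whose first base is 81 bases before the start site. PCDHGB6, which was lower there, has 1 CACCTG, at 170 bases before it. The CDH2, PCDHGC3 and PCDHGB4 sequences hold neither. In the whole window of 300 bases, which adds 50 after the start site, 6 of the 70 members found in the table (8.57%) held the E-box on either strand: CDH4, PCDH1, PCDHB1, PCDHGA2, PCDHGA11 and PCDHGB6. Of all 35116 windows in the table, 20.6% held it. The 2 shares are of unlike sets: the first takes 1 window per member, and 47 of the 70 members are clustered protocadherins. A match describes these letters and is not evidence of binding. The table held no window for 19 members, among them CDH1, CDH11, CDH13 and CDH24.

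The clustered protocadherins need a word on how they were counted. In GENCODE 29, whose exon lengths equal the deposited gene lengths for all 89 members, every gamma gene shares at least 2181 exon bases with other members and every alpha gene at least 2866. PCDHGA7 had 0 reads in the vector library although it shares its constant exons with PCDHGC3, which had 2417, so reads on shared exons were not given to every gene. The FPKM of these genes still divide by the whole length. Over the bases that no other gene covers, PCDHGC3 would stand at 46.8, 49.7 and 57.0, PCDHGC5 at 4.93, 5.65 and 6.31, and PCDHGB4 at 3.97, 6.60 and 9.13, if all their reads lay there. Ratios between libraries are the same on either length.

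PCDHGC3 (ENSG00000240184, chromosome 5, 141475947 to 141512979, plus strand), a C-type isoform outside the stochastic promoter choice of the cluster, was the most abundant member in every library, at 28.0, 29.7 and 34.1 FPKM. It held 64.2% (62.6 to 65.7), 63.5% (61.9 to 65.1) and 61.8% (60.3 to 63.3) of all gamma reads. Its ratios to vector were 1.06 (1.00 to 1.13) and 1.22 (1.15 to 1.29), which turned to 0.773 and 0.898 at a common sum, and per total of reads wild type also turned, to 0.951. PCDHGC5 stood at 2.78, 3.18 and 3.55 FPKM, with ratios of 1.15 (0.946 to 1.39) and 1.28 (1.06 to 1.54) that turned to 0.834 and 0.943, and PCDHGC4 had 25, 10 and 16 reads.

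The other gamma genes differed from each other in direction. PCDHGB4 (ENSG00000253953, chromosome 5, 141387698 to 141512979, plus strand) stood at 1.41, 2.35 and 3.25 FPKM, with each ZEB1 library above vector and K80R above wild type. Its ratios were 1.66 (1.349 to 2.06) and 2.30 (1.89 to 2.81) to vector, and 1.38 (1.16 to 1.65) for K80R against wild type. PCDHGB7 gave 1.98, 1.72 and 1.497 FPKM and was lowest in the K80R library, at 0.757 (0.582 to 0.9798) of vector. PCDHGA12 gave 1.97, 1.72 and 1.996, within counting error as deposited. At a common sum PCDHGA12 stood at 0.633 (0.492 to 0.812) of vector in wild type and 0.745 (0.584 to 0.949) in K80R.

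Below a mean FPKM of 1, PCDHGA1 was at 0.292, 0.812 and 1.09, PCDHGB1 at 0.224, 0.562 and 0.834, PCDHGB2 at 0.541, 0.988 and 1.16, and PCDHGB3 at 0.212, 0.625 and 0.710 FPKM. In each of these the vector library was the lowest, with ratios from 1.83 to 2.95 for wild-type ZEB1 and from 2.15 to 3.74 for K80R. PCDHGA9, with 5, 15 and 22 reads, and PCDHGA10, with 58, 90 and 88, had the same direction. At a common sum the wild-type intervals of PCDHGB2, PCDHGA9 and PCDHGA10 against vector held 1, as did the K80R interval of PCDHGA10. PCDHGA7 had 0, 13 and 18 reads, and the lower ends of its intervals against vector were 3.51 for wild type and 5.24 for K80R. Among 13731 genes with at least 13 reads in both ZEB1 libraries, 106 (0.772%) had 0 reads in the vector library, a limit set after these reads were seen.

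Some other genes of the same array were highest in the vector library. PCDHGA3 had 42, 9 and 15 reads, or 0.247 (0.106 to 0.514) and 0.426 (0.219 to 0.784) of vector. PCDHGB6 had 48, 22 and 15, or 0.528 (0.303 to 0.891) and 0.373 (0.194 to 0.677), and PCDHGA11 had 25, 11 and 7. PCDHGA4 had 69, 19 and 45 reads, so it was low in the wild-type library, at 0.317 (0.180 to 0.533) of vector, and K80R stood at 2.45 (1.41 to 4.44) times wild type. PCDHGA5, with 36, 23 and 46 reads, was also lower in wild type than in K80R. PCDHGA6, with 142, 91 and 107, was lower in wild type than in vector, at 0.738 (0.561 to 0.967). As deposited, all intervals of PCDHGA2 and PCDHGA8 held 1. At a common sum the wild-type interval of PCDHGA2 against vector lay below 1. PCDHGA3, lower in both ZEB1 libraries, lies directly before PCDHGB1, higher in both.

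**Figure D3:**
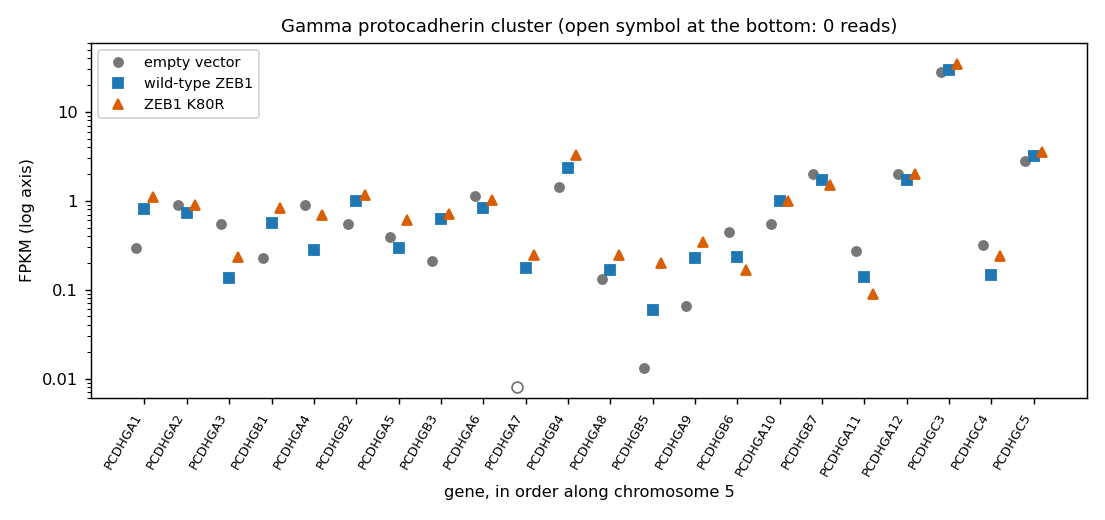
FPKM on a log axis of the 22 gamma protocadherins in their order along chromosome 5, with 1 symbol per library and an open symbol for a gene with 0 reads. PCDHGC3 stands far above the rest in all 3 libraries, PCDHGB1 to PCDHGB4 were lowest in the vector library, and PCDHGA3 and PCDHGB6 were highest in it.

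Summed by class, the 7 PCDHGB genes had 434, 511 and 598 reads, ratios of 1.36 (1.19 to 1.54) and 1.64 (1.45 to 1.86) to vector that became 0.987 and 1.21 at a common sum. The 12 PCDHGA genes had 670, 543 and 676 reads, ratios of 0.933 (0.832 to 1.05) and 1.203 (1.08 to 1.34), or 0.679 and 0.887 at a common sum. For all 22 gamma genes the ratios were 1.07 (1.03 to 1.12) and 1.26 (1.21 to 1.32), below 1 at a common sum, at 0.782 and 0.932.

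The beta protocadherins, single-exon genes of similar sequence, had low levels and 246, 209 and 241 reads in all, with ratios of 0.978 (0.810 to 1.18) and 1.17 (0.974 to 1.40) to vector that became 0.712 and 0.861 at a common sum. The sources used here do not say how reads that match several of these copies were counted, so values of single beta genes are uncertain. The highest were PCDHB2, at 0.656, 0.457 and 0.837 FPKM (K80R turns below vector at a common sum), PCDHB5, at 0.757, 0.617 and 0.573, and PCDHB15, at 0.407, 0.650 and 0.654. PCDHB6 had 14, 25 and 19 reads, PCDHB7 25, 15 and 13, and PCDHB14 31, 17 and 24. PCDHB8 had 0, 15 and 14 reads, and the lower ends of its intervals against vector were 4.13 for wild type and 3.96 for K80R. The other 9 members of the cluster had at most 16 reads.

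The alpha protocadherins, which are typical of neurons, were nearly silent, with 35, 17 and 15 reads over 15 genes. PCDHA1 accounted for 30 of the 35 in the vector library, and for 4 and 7 in the ZEB1 libraries, ratios of 0.154 (0.0393 to 0.436) and 0.278 (0.103 to 0.647). No other alpha gene exceeded 7 reads.

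Among the better measured members, CDH13 and PCDH1 stood above the vector library in wild type by most. By a ratio of FPKM + 1 of at least 1.5, these 2 of the 10 measured members were higher and none was lower, where measured means a mean FPKM of at least 1. Over all 12605 genes that reach this mean, 14.2% were higher and 11.1% lower, and over the 10372 protein-coding ones 12% and 7.63%, so 2 of 10 is near the background. A member high in the ZEB1 libraries alone could pass the mean through them. The median difference of log2(FPKM + 1) of the 10 was 0.31, against 0.01 over all genes. At a common sum the median of the same 10 was −0.06. There 31 members reached the mean of 1, of which 4 were higher and 6 lower with a median of −0.29, and over all 17153 genes that reached it 11.9% were higher and 37.7% lower with a median of −0.39.

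Counting every member with at least 20 reads in some library, 40 in all, the interval of the ratio of wild-type ZEB1 to vector lay above 1 for 16 and below 1 for 8. Among 12213 protein-coding genes with that many reads these shares were 36.5% and 33.1%, and among all 14508 genes 34.6% and 33%, so intervals beside 1 were frequent in general. The 16 were CDH2, CDH4, CDH11, CDH13, CDH24, PCDH1, PCDH12, PCDHB6, PCDHGA1, PCDHGA9, PCDHGA10, PCDHGB1, PCDHGB2, PCDHGB3, PCDHGB4 and PCDHGC3, of which CDH24 and PCDHGC3 turn below 1 at a common sum. The 8 were CDH23, PCDH7, PCDHA1, PCDHGA3, PCDHGA4, PCDHGA6, PCDHGB6 and PCDHGC4. The balance turned at a common sum, where the interval lay above 1 for 8 members (CDH2, CDH4, CDH11, CDH13, PCDH1, PCDHGA1, PCDHGB1 and PCDHGB3) and below 1 for 21, against 13.7% and 63.3% of the protein-coding genes. Per total of reads it lay above 1 for 12 and below 1 for 13, against 27.2% and 44.0%. On all 3 scales those 8 members lay above 1 and the 8 lower ones below.

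In the K80R library, CDH2, CDH11 and PCDHGB4 joined CDH13 and PCDH1 as at least 1.5-fold higher than vector by FPKM + 1, 5 of the 10 members, and none was lower. The comparison shares its control library with the previous one. Over all genes 12.6% were higher and 13% lower, and over protein-coding genes 9.68% and 10.3%. The median difference was 0.46, against 0.005 over all genes. At a common sum the median of the same 10 was 0.09. There 6 of 31 members were higher and 6 lower with a median of −0.065, and over all genes 12.6% were higher and 35.9% lower with a median of −0.36. With a ratio of at least 2 as the limit, CDH13 and PCDH1 were the 2 that remained. Of the 40 members with at least 20 reads, the interval lay above 1 for 17 and below for 6, where the shares were 35.7% and 33.2% over protein-coding genes and 34.6% and 32.3% over all genes. At a common sum it lay above 1 for 11 and below for 12, against 13.1% and 62.2% of protein-coding genes, and per total of reads for 15 and 6, against 27.9% and 41.3%. CDH2, CDH11, CDH13, PCDH1, PCDH12, PCDHGA1, PCDHGA9 and PCDHGB1 to PCDHGB4 lay above 1 on all 3 scales.

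Between the ZEB1 libraries the members differed less in size, and CDH2 and PCDHGB4 were among those higher in K80R. None of the 10 members differed by 1.5-fold in FPKM + 1, where 4.42% of all genes were higher and 5.18% lower in K80R, or 1.33% and 3.87% of protein-coding ones. Their median difference was 0.13, against −0.02 over all genes. Of the 40 members with at least 20 reads, the interval of the ratio of K80R to wild type lay above 1 for 11, namely CDH2, CDH23, CDH24, PCDH7, PCDH9, PCDH12, PCDHB2, PCDHGA4, PCDHGA5, PCDHGB4 and PCDHGC3. It lay below 1 for CDH13. Over protein-coding genes these shares were 24.8% and 29.8%, and over all genes 24.1% and 27.2%. With the common sum, 3 of 31 members were at least 1.5-fold higher in K80R, PCDHB2, PCDHGA4 and PCDHGA5, and none was lower, where 11.3% of all genes were higher and 8.57% lower. The interval counts were 12 and 1 at a common sum, against 26.2% and 28.2% of protein-coding genes. Per total of reads they were 13 and 1, against 27.9% and 26.4%, and CDH11 lay above 1 on both of these scales. The reads of all members together gave a ratio of 1.10 (1.07 to 1.13).

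**Figure D4:**
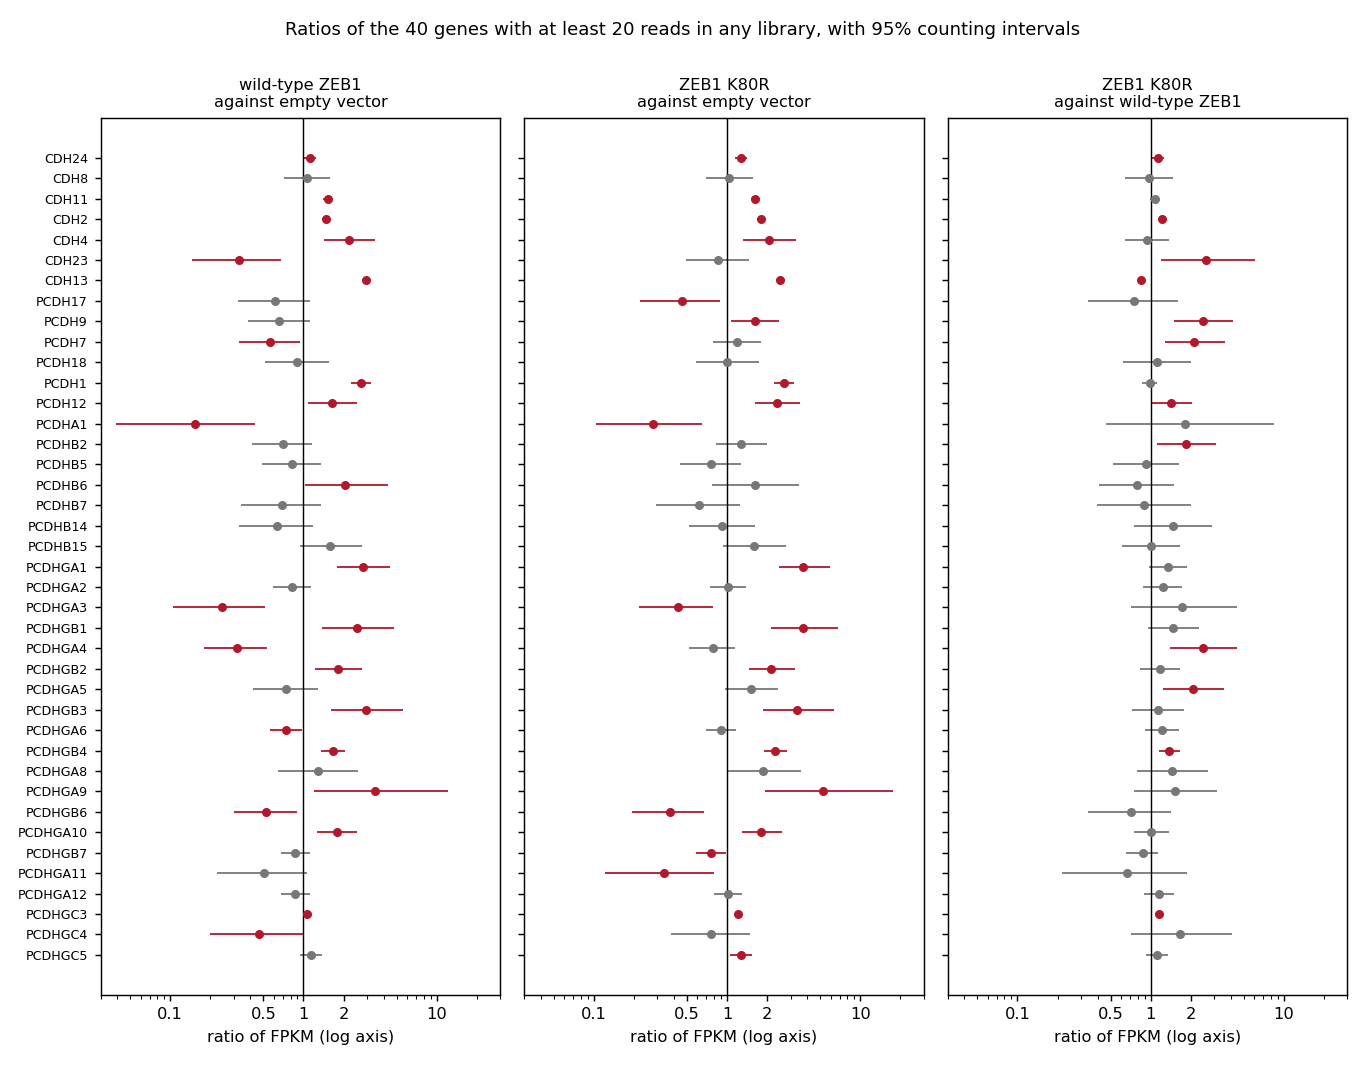
Ratios of FPKM on a log axis, with exact 95% counting intervals as bars, for the 40 members with at least 20 reads in any library, in red where the interval does not hold 1. Against empty vector 16 and 17 members lay above 1 and 8 and 6 below, and between the ZEB1 libraries 11 lay above and 1 below. At a common sum all ratios to vector shift to the left, which turns 5 members below 1 in wild type (CDH8, CDH24, PCDHGA8, PCDHGC3 and PCDHGC5) and 9 in K80R (CDH8, CDH24, PCDH7, PCDH18, PCDHB2, PCDHGA2, PCDHGA12, PCDHGC3 and PCDHGC5).

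The partners of the cadherin tail were near level between the libraries as deposited. Of 15 catenins and other partners, 12 were measured and none differed by 1.5-fold between wild-type ZEB1 and vector, where 14.2% of all genes were higher and 11.1% lower. Their median was 0.03 (−0.41 at a common sum). CTNNB1, which encodes beta-catenin, stood at 75.3, 64.8 and 62.7 FPKM, CTNNA1 (alpha-catenin) at 55.7, 57.6 and 51.4, and CTNND1 (p120-catenin) at 20.3, 20.9 and 22.0. In K80R against vector, where 12.6% of all genes were higher and 13% lower, VCL, the actin linker vinculin, was the 1 higher gene, at 85.0 against 55.4. CTNNBIP1, an inhibitor of beta-catenin in Wnt signalling, was the 1 lower gene, at 6.79 against 13.8. Of the catenins of neurons and heart, CTNNA2, CTNNA3 and CTNND2 had at most 2 reads. The 4 nectins, which build junctions beside cadherins, were all measured. NECTIN2 stood at 37.0, 69.7 and 55.0 FPKM, and was at least 1.5-fold higher than vector by FPKM + 1 in wild type. NECTIN4 stood at 7.89, 5.09 and 4.05, and was lower than vector by that limit in K80R. The medians of the nectins against vector were −0.19 for wild type and −0.002 for K80R (−0.65 and −0.44 at a common sum).

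Among 25 other genes of the cadherin superfamily, 8 were measured, and the desmosomal cadherins DSC3, DSG1, DSG3 and DSG4 had 0 reads throughout. Against empty vector 1 was higher and 1 lower in wild-type ZEB1, where 14.2% and 11.1% of all genes were. In K80R 3 were higher and none lower, where 12.6% and 13% of all genes were. The medians were 0.10 and 0.36 (−0.31 and −0.02 at a common sum). The calsyntenin CLSTN3 stood at 8.54, 17.9 and 16.4 FPKM, the desmoglein DSG2 at 21.1, 27.9 and 39.9 (with wild type below vector at a common sum), the giant cadherin FAT1 at 20.7, 18.4 and 31.6, and the brush border protocadherin CDHR5 at 1.63, 0.618 and 0.988. FAT1 was the 1 gene of the 8 with a 1.5-fold difference between K80R and wild type, where 4.42% of all genes were higher and 5.18% lower.

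Some genes that cleave or mature cadherins were higher in the ZEB1 libraries. Of 12 such genes 11 were measured, and 4 were higher and none lower in each ZEB1 library against vector. Of all genes 14.2% and 12.6% were higher in these comparisons, and 11.1% and 13% lower. The list had medians of 0.09 and 0.20 (−0.36 and −0.22 at a common sum). PSENEN, at 0.785, 3.89 and 3.38 FPKM, and NCSTN, at 22.7, 51.7 and 51.2, both subunits of gamma-secretase, were among them in each ZEB1 library. The proprotein convertase FURIN, at 31.1, 54.2 and 46.5, was among them in wild type, and the shedding protease ADAM10, at 12.0, 16.5 and 18.7, in K80R. The WAVE complex is an actin regulator that many protocadherin tails bind. Of its 9 measured genes, 2 were higher in each ZEB1 library against vector and none was lower. Those were BRK1, at 20.9, 64.3 and 45.4 FPKM, and ABI1, at 8.83, 15.6 and 16.1. Over all genes 14.2% and 12.6% were higher, and 11.1% and 13% lower. The medians of this list were 0.23 and 0.10 (−0.21 and −0.33 at a common sum).

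All 14 genes known from promoter choice and silencing in the clustered protocadherins were measured, with 0 higher and 1 lower in wild-type ZEB1 and none differing by 1.5-fold in the other comparisons. The shares of all genes higher and lower were 14.2% and 11.1% for wild type against vector. They were 12.6% and 13% for K80R against vector, and 4.42% and 5.18% for K80R against wild type. The lower gene was STAG1, a cohesin subunit, at 9.29, 5.56 and 6.65 FPKM. SMCHD1, which silences clustered protocadherins, stood at 6.19, 3.999 and 5.72, and CTCF, which folds their promoters onto enhancers, at 7.05, 5.83 and 7.64. The median difference of the list was −0.16 for wild type and 0.01 for K80R against vector (−0.61 and −0.41 at a common sum), and 0.23 for K80R against wild type.

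**Figure D5:**
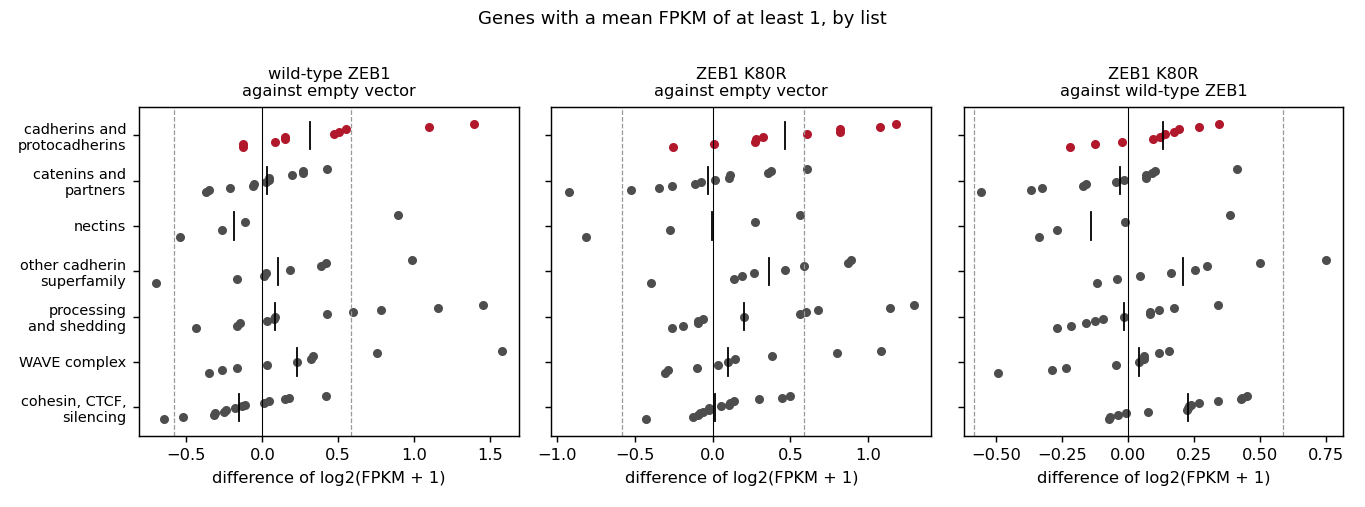
Difference of log2(FPKM + 1) of each gene whose mean FPKM reached 1, as points by list, with the list's median as a black bar and dashed lines at a ratio of 1.5 in either direction, in 3 panels for the 3 comparisons (the axes differ in range). The median of the 10 cadherins and protocadherins was 0.31, 0.46 and 0.13, and for the first panel it turned to −0.06 for the same 10 genes at a common sum.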

How the data were processed

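RNA from 3 libraries labelled HCT116 was sequenced, 1 per group, with groups taken from the genotype label. Libraries were made from total RNA with a SMARTER mRNA kit, per the labels' protocols. CASAVA, DESeq2 1.20.0, featureCounts 1.5.0-p3 and the build hg38 appear in the submitters' processing notes, without roles. Aligner, strand setting and annotation are not given in the sources used here. Values were deposited as FPKM. FPKM times gene length was a whole multiple of 1 step per library for 100.0% of genes above 0, within 0.05 reads, which gave the reads. All 58735 gene identifiers were found in GENCODE 29 (GRCh38).

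Differences are of log2(FPKM + 1), with a pseudocount of 1, which understates those of low genes. They were counted past a ratio of 1.5 where the mean FPKM reached 1. Intervals are exact conditional 95% counting intervals of the recovered reads, and reads copied from 1 molecule are not independent. Read recovery and the intervals were tested on simulated data. Python 3.11.15, pandas 2.3.3 and scipy 1.17.1 were used. Named genes were all members at that mean or with at least 20 reads in a library, CDH1, CDH2 and CDH3, and up to 4 genes per other list by largest difference. Some of these are not reported here. Members named with fewer reads, and CTNNB1, CTNNA1, CTNND1, CTNNA2, CTNNA3, CTNND2, CTCF and other list genes outside that rule, were chosen after their values were seen. Members and lists were chosen with earlier results of these data known. Promoter sequences are from RefSeq (GRCh38.p14).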

Additional observations from a re-analysis of the deposited data

How the results depend on the processing

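No paired analysis was possible because each group holds 1 library, and no library could be left out. The numbers of members higher and lower and the median difference in each comparison were recomputed under 7 settings. A count was taken as moved when it differed by more than 1.5 times, and a median when it differed by more than the typical counting error of the 10 members. For wild-type ZEB1 against vector, 4 members were higher with a pseudocount of 0.1, 1 with a mean FPKM of at least 5, and at a common sum 4 were higher and 6 lower with a median of −0.29. The median was 0.065 with a mean FPKM of at least 0.1 and 0.015 with no filter, where most members lie near 0. For K80R against vector, 3 were higher with a mean FPKM of at least 5 and 2 with a ratio of at least 2, and at a common sum 6 were lower and the median was −0.065. The median was 0.16 with a mean of at least 0.1 and 0.024 with no filter. For K80R against wild type, 3 were higher at a common sum. The numbers of members whose counting interval lay above and below 1 were also recomputed on 2 scales added after the data were seen. For wild type against vector they were 8 and 21 at a common sum and 12 and 13 per total of reads, and for K80R against vector 11 and 12, and 15 and 6. Of all these values 53 stayed within those limits and 19 did not. At a common sum every value is larger, so 31 members pass the mean of 1. Of the 126 differences of single members, the median ratio moved none by more than the reach of the member's own counting interval to one side, the common sum 19 and the pseudocount of 0.1 10. This limit is wide for members with few reads: with a pseudocount of 0.1, the difference of wild type from vector went from −0.35 to −1.53 for PCDHA1 and from −0.44 to −1.46 for PCDHGA3, within it. No difference of at least 1.5-fold changed sign. The level per unshared exon base, a setting added after the data were seen, moved 15 of 30 levels. Depth limits the 49 members with fewer than 20 reads in every library.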

Other observations

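The table also lists 17 genes without a protein product whose names begin with CDH or PCDH, such as the pseudogenes PCDHB17P and PCDHGB8P and antisense genes of PCDH9. Of these, 13 had 0 reads in all 3 libraries and none exceeded 6 reads. PCDHGB8P, which lies in the gamma array between PCDHGA11 and PCDHGA12, had 0 reads in the vector library, 3 in wild type and 6 in K80R.

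Members with 0 reads numbered 33 in vector, 21 in wild type and 22 in K80R, and those with 1 to 3 reads numbered 5, 13 and 10. CDH16 was at 9, 0 and 0 reads, and of 15966 genes with at least 9 reads in the vector library, 192 (1.203%) had 0 reads in both ZEB1 libraries. The part of the vector library's scarcity of genes with very few reads in these counts was not tested.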
